A study of Homo sapiens with 18 samples.

Results

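The transcripts of the epidermal growth factor (EGF) family were followed in OVCAR5 cells given stearate or oleate. The set held 10 genes taken by symbol: the ligands HBEGF, EREG, AREG, TGFA and BTC, the receptors EGFR, ERBB2 and ERBB3, the sheddase ADAM17 and the receptor inhibitor ERRFI1. All 10 were among the 60483 gene identifiers in the expression table, and all 10 were among the 13789 genes whose mean level over the samples reached 1 TPM (a transcript count scaled to gene length and to a fixed library total), the minimum used for testing.

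OVCAR5 cells, a human line recorded in the sample labels as wild type and as high grade serous ovarian adenocarcinoma, were sequenced in 18 samples. There were 6 conditions of 3 replicates each, in which no fatty acid, stearate or oleate was combined with either DMSO (the vehicle) or CAY10566. Stearate is a saturated and oleate a monounsaturated fatty acid of the same chain length, each given at 50 µM, and CAY10566, given at 1 µM, inhibits stearoyl-CoA desaturase 1 (SCD1), the enzyme that turns stearate into oleate. Exposure lasted 24 h, and every condition, the controls included, was in medium with fatty-acid-free bovine serum albumin.

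For the fatty acid comparisons the samples formed 3 groups of 6 (control, stearate and oleate), each with DMSO and CAY10566 samples together. Epithelial markers were abundant in all samples, with a mean over the 18 samples of 331 TPM for EPCAM and 895 TPM for KRT8. The Müllerian marker PAX8 averaged 11.8 TPM, while WT1, a marker of serous ovarian carcinoma, never exceeded 0.52 TPM, which goes against the labelled subtype, and CDX2, an intestinal marker, averaged 3.76 TPM. PTPRC, the defining marker of leukocytes, averaged 0.00556 TPM, and COL1A2 and DCN of fibroblasts averaged 0.0294 and 0.0183 TPM. CAY10566 replicate 3 stood apart from the other 5 controls: the median log2 deviation of genes with long transcripts (4584 bases or more) minus that of genes with short ones (under 2485 bases) was 0.0982 in this sample, between −0.171 and −0.0957 in the other controls, between −0.0664 and 0.0779 in the stearate samples and between −0.00728 and 0.133 in the oleate samples. Without this sample the FDR calls of the 10 genes in the 3 fatty acid comparisons were all kept. The EGFR differences from control in these groups are given with and without it. Differences from control within the CAY10566 samples alone are given only with it. Among differences from control that passed in neither fit, EREG without this sample was −0.063, TGFA 0.063, ERBB3 0.10 and BTC 0.019 with stearate and AREG −0.022 and ERBB2 0.079 with oleate, on the log2 scale.

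EGF family ligands are made as membrane-anchored precursors, and proteolytic cleavage, for most of them by ADAM17, releases the soluble growth factor. Released ligand binds EGFR, which pairs with another EGFR or with ERBB2 or ERBB3 and starts the RAS-ERK and PI3K-AKT cascades. ERBB2 has no known ligand of its own, ERBB3 has little kinase activity, and ERRFI1 (MIG6) is a feedback inhibitor that binds the active EGFR kinase domain. The pathway is a driver of growth in epithelial tissues and carcinomas.

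EREG, AREG and BTC lie in one cluster on chromosome 4. In GRCh38 (GENCODE release 44), EREG (ENSG00000124882) occupied chr4:74365145-74388749 and AREG (ENSG00000109321) chr4:74445136-74455005, both on the plus strand and 56.4 kb apart, and BTC (ENSG00000174808) followed 290 kb further on the minus strand at chr4:74744759-74794523. There was no other protein-coding gene annotated in either gap. RefSeq promoter sequences (GRCh38.p14) were matched for 9 of the 10 genes, and those of 5 genes are printed: EGFR, TGFA and ERRFI1, which passed both thresholds in a fatty acid comparison below, and the chromosome 4 neighbours AREG and EREG. Each run is the 250 bases before the transcription start, 5′ to 3′ on the strand of the gene, at chr7:55018767-55019016 (EGFR start 1, plus strand), chr7:55109589-55109838 (EGFR start 2, plus strand), chr2:70553827-70554076 (TGFA, minus strand, the first of a pair of starts), chr4:74444886-74445135 (AREG, plus strand), chr4:74364895-74365144 (EREG, plus strand) and chr1:8026310-8026559 (ERRFI1, minus strand). Capitals mark matches to the motifs searched.
EGFR start 1: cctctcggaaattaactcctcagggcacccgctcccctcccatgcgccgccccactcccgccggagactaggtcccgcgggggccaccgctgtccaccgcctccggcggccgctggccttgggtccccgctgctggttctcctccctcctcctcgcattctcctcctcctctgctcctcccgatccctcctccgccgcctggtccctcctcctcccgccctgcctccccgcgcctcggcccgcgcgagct
EGFR start 2: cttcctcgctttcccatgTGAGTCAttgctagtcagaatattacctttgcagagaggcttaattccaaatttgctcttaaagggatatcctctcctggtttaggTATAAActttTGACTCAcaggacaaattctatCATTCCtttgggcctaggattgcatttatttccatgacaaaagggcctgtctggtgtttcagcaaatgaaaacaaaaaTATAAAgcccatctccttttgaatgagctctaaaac
TGFA: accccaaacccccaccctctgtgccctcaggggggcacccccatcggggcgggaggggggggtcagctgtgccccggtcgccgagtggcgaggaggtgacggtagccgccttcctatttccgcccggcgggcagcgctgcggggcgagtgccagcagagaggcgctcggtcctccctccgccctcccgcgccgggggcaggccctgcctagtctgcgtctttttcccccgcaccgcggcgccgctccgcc
AREG: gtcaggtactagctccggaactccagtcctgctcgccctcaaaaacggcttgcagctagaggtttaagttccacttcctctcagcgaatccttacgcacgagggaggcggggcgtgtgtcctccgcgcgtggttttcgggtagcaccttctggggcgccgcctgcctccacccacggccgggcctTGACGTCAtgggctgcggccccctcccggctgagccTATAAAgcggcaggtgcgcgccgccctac
EREG: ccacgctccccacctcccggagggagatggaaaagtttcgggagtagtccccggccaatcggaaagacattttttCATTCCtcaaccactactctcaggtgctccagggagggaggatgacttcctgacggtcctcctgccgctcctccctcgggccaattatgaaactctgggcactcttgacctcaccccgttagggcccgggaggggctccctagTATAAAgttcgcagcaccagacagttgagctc
ERRFI1: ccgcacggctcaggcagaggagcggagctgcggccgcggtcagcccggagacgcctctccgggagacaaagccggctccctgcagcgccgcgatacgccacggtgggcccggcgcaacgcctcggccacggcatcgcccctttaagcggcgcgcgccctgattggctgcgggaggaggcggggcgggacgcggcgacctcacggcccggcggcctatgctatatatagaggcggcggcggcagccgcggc
The motifs were the cAMP response element (TGACGTCA), the AP-1 site (TGANTCA), the TEAD core (GGAATG) and the TATA box (TATAAA), searched on both strands, and no matches overlapped each other. AREG held the cAMP response element 65 bases and a TATA box 29 bases before the start. EREG held a TATA box 32 bases before the start and, on the reverse strand, a TEAD core 175 bases before it. The second EGFR start, 90822 bases downstream of the first, held AP-1 sites 232 and 136 bases, a reverse-strand TEAD core 114 bases and TATA boxes 146 and 36 bases before it, and which start these cells used cannot be read from gene-level values. The runs of the first EGFR start, TGFA and ERRFI1 held no match to these letters. Of 35116 promoter windows of the same length, 1.65% held the cAMP response element, 6.57% the AP-1 site, 11.9% the TEAD core and 10.7% the TATA box.

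TPM is scaled by transcript length, so levels can be set side by side between genes. Averaged over the 18 samples, ERRFI1 was the most abundant transcript of the set at 1105 TPM, 4.22 times the next, HBEGF, at 262 TPM. EREG at 133 TPM and AREG at 112 TPM followed, then EGFR at 75.6 TPM, ADAM17 at 61.4 TPM and TGFA at 45.9 TPM. ERBB2 at 13.5 TPM, ERBB3 at 8.68 TPM and BTC at 2.51 TPM were the lowest.

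The ranges of neighbours in this order overlapped between EREG and AREG, AREG and EGFR, EGFR and ADAM17, and ADAM17 and TGFA, and did not overlap elsewhere. Within samples, EREG was higher than AREG in 17 of 18, AREG higher than EGFR in all 18 and ADAM17 higher than TGFA in all 18. EGFR was higher than ADAM17 in 13 of 18 samples, and in both stearate conditions the mean of ADAM17 was the higher. The order of the other genes was the same in all 6 conditions.

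The first comparison asked how stearate changed these transcripts. Of the 10 genes, 0 passed both thresholds (a false discovery rate, FDR, under 0.05 and a log2 fold change beyond 0.32 in either direction), against 5.35% of all genes tested, and 3 passed the FDR alone, against 19.4% of all genes. Those were AREG and ERRFI1, which fell (5.97% of all genes did), and ADAM17, which rose (13.5% did). The median log2 fold change of the 10 genes was −0.0136, and that of all genes was 0.0599.

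Oleate against control gave another pattern. EGFR and TGFA were upregulated past both thresholds (2 of 10, where 6.9% of all genes passed in either direction and 6.46% upwards), and 6 genes passed the FDR alone, all of them upwards, against 25.7% of all genes in either direction and 23% upwards. The median log2 fold change was 0.173 for the 10 genes and 0.0872 for all genes. In stearate against oleate, EGFR, TGFA and ERRFI1 were lower past both thresholds (3 of 10, against 6.37% of all genes in either direction and 4.78% downwards), and EREG, AREG and HBEGF were also lower at the FDR alone (6 of 10 in all, against 21.1% of all genes in either direction and 14.3% downwards). The 3 comparisons share samples, and each gene's values for them are given side by side below.

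**Figure D1:**
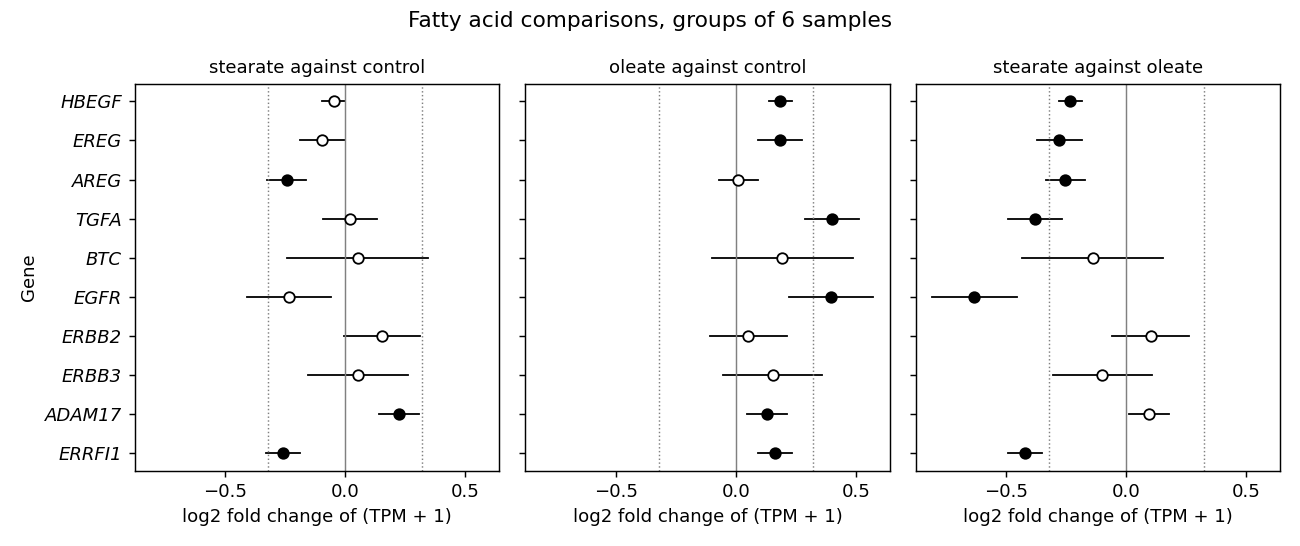
Log2 fold change of (TPM + 1) for the 10 genes in the 3 fatty acid comparisons, 6 samples per group. Points are limma estimates with 95% confidence intervals, filled where the FDR was under 0.05, and dotted lines mark the fold threshold. EGFR and TGFA lie beyond the dotted line on the right for oleate against control, and EGFR, TGFA and ERRFI1 beyond it on the left for stearate against oleate.

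Among the ligands, TGFA, which encodes transforming growth factor alpha, had the largest oleate difference. TGFA (ENSG00000163235, chr2:70447284-70554193, minus strand) measured 39.57, 38.13 and 40.86 TPM with DMSO and 41.92, 38.89 and 47.81 TPM with CAY10566. With stearate it measured 43.75, 43.57 and 36.74 TPM (DMSO) and 40.83, 41.63 and 44.08 TPM (CAY10566), within the range of the controls except for the lowest value. With oleate it measured 56.11, 55.27 and 55.36 TPM (DMSO) and 56.27, 55.47 and 49.34 TPM (CAY10566). All 6 oleate samples were above all 6 controls and all 6 stearate samples. The group means were 41.2 ± 3.51, 41.8 ± 2.78 and 54.6 ± 2.63 TPM for control, stearate and oleate (SD, n = 6). TGFA was 1.32-fold higher with oleate than in the controls (log2 fold change 0.40 ± 0.054, SE; adjusted p = 0.000381) and 0.768 times as high with stearate as with oleate (−0.38 ± 0.054; adjusted p = 5.6e-05). Its oleate difference was under the fold threshold with size factors, each library's median ratio to the others (0.30; adjusted p = 0.000309). Its stearate difference from control was 0.021 on the log2 scale (adjusted p = 0.823).

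HBEGF encodes heparin-binding EGF-like growth factor and was the most abundant ligand. HBEGF (ENSG00000113070, chr5:140332843-140346603, minus strand) measured 251.75, 255.12 and 256.12 TPM with DMSO and 255.85, 247.78 and 250.74 TPM with CAY10566. With stearate the values were 248.06, 244.89 and 238.42 TPM (DMSO) and 244.08, 247.25 and 244.91 TPM (CAY10566). Oleate samples held 282.06, 298.22 and 290.11 TPM (DMSO) and 271.33, 297.4 and 288.48 TPM (CAY10566). The control and stearate values lay close together and just overlapped, with 5 of 6 stearate samples below every control, and all oleate samples were above both. HBEGF was 1.14-fold higher with oleate than in the controls (log2 fold change 0.19 ± 0.023; adjusted p = 0.00021), short of the fold threshold. It was lower with stearate than with oleate (−0.23 ± 0.023; adjusted p = 5.38e-07). Stearate against control did not pass the FDR (−0.048; adjusted p = 0.149).

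EREG and AREG, the chromosome 4 neighbours, encode epiregulin and amphiregulin. EREG measured 120.89, 122.71 and 129.22 TPM with DMSO and 139.04, 123.06 and 145.14 TPM with CAY10566. With stearate it measured 125.69, 128.6 and 118.04 TPM (DMSO) and 117.94, 121.83 and 116.27 TPM (CAY10566), and with oleate 142.8, 149.34 and 154.58 TPM (DMSO) and 150.49, 150.92 and 137.11 TPM (CAY10566). The stearate samples overlapped the controls, and 4 of 6 oleate samples were above every control. EREG was 1.14-fold higher with oleate (log2 fold change 0.18 ± 0.044; adjusted p = 0.00713), a call lost with size factors (0.081; adjusted p = 0.109) and in the CAY10566 samples alone (0.11; adjusted p = 0.418). Its stearate difference from control did not pass (−0.096; adjusted p = 0.134), except when the samples were rescaled by size factors (−0.16; adjusted p = 0.00397), or with each sample's trend in transcript length and GC content removed (−0.17; adjusted p = 0.00643). Between stearate and oleate the groups did not overlap (0.824 times as high with stearate, −0.28 ± 0.044; adjusted p = 0.00017).

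AREG measured 116.91, 125.58 and 126.48 TPM with DMSO and 119.55, 114.33 and 105.34 TPM with CAY10566. Stearate samples held 97.57, 98.79 and 100.47 TPM (DMSO) and 102.96, 100.39 and 95.67 TPM (CAY10566), all below every control. Oleate samples held 125.73, 116.01 and 119.14 TPM (DMSO) and 113.36, 117.51 and 120.58 TPM (CAY10566), inside the range of the controls. AREG fell to 0.844 times the control level with stearate (log2 fold change −0.24 ± 0.039; adjusted p = 0.000249), a change under the fold threshold. With oleate the difference from control was 0.010, with a 95% confidence interval from −0.070 to 0.091 (adjusted p = 0.876), but it depended on scaling: it was −0.092 with size factors (adjusted p = 0.243) and passed the FDR upwards with the length and GC trend removed (0.11; adjusted p = 0.0135). AREG was lower with stearate than with oleate (−0.25 ± 0.039; adjusted p = 0.000104), and this difference passed, like that of EREG, with TPM as deposited, with size factors and with the trend removed. Whether the 2 genes responded differently from each other was not tested.

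BTC, which encodes betacellulin, was near the limit for testing. BTC measured 2.55, 1.65 and 2.78 TPM with DMSO, 1.91, 3.0 and 1.92 TPM with CAY10566, 2.46, 2.86 and 2.21 TPM with stearate+DMSO and 2.4, 2.46 and 1.97 TPM with stearate+CAY10566. With oleate it measured 2.12, 2.32 and 1.85 TPM (DMSO) and 4.39, 3.34 and 2.9 TPM (CAY10566). The groups overlapped in all 3 fatty acid comparisons and no adjusted p was under 0.333. The table holds 2 decimals and no read counts, so the counting error behind these low values is unknown.

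**Figure D2:**
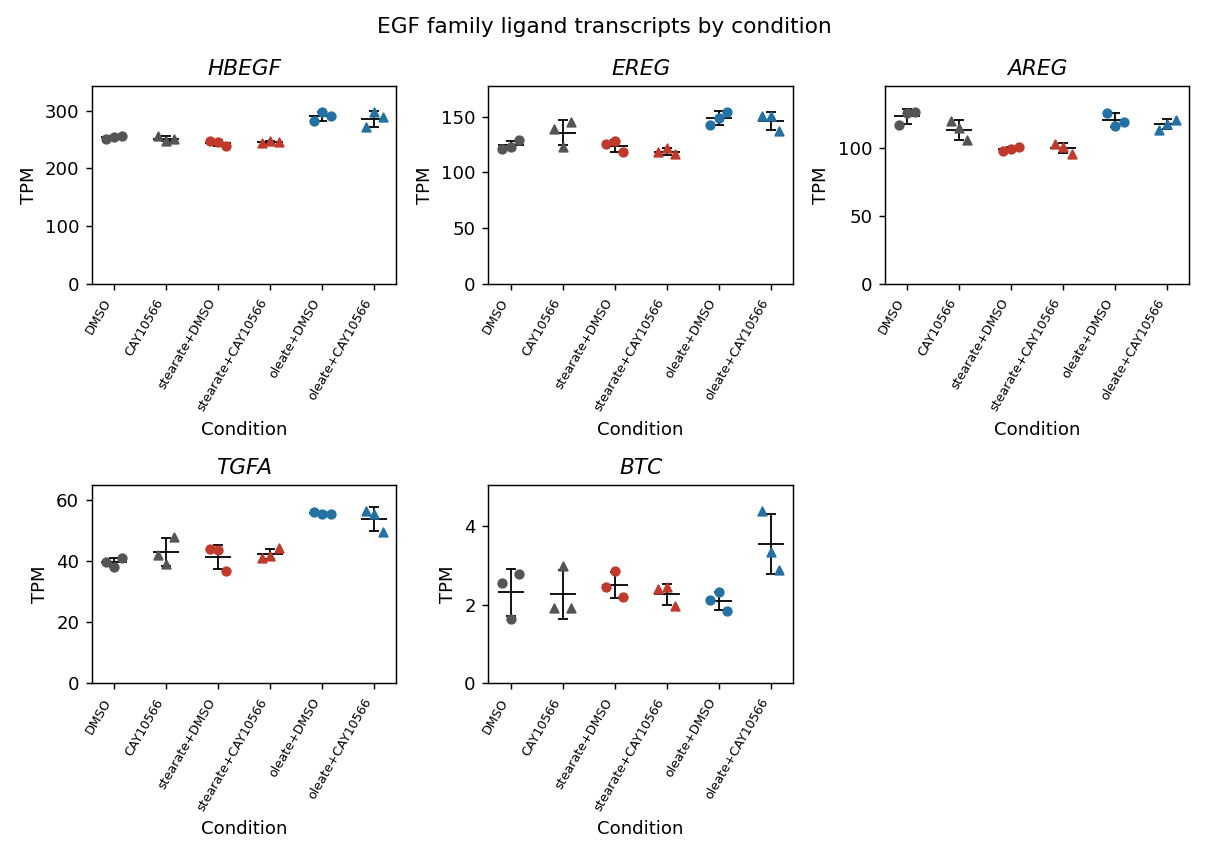
TPM of the 5 ligand transcripts in each of the 18 samples by condition, with a vertical axis from 0 in each panel. Circles are DMSO and triangles CAY10566 samples, grey without fatty acid, red with stearate and blue with oleate, with the mean and SD of 3 replicates. All oleate values of HBEGF and TGFA lie above the control values, and all stearate values of AREG lie below them.

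EGFR was the most abundant receptor. EGFR (ENSG00000146648, chr7:55019017-55211628, plus strand) measured 66.26, 62.2 and 66.91 TPM with DMSO and 71.96, 68.15 and 96.06 TPM with CAY10566. With stearate it measured 66.22, 64.11 and 53.21 TPM (DMSO) and 54.11, 60.15 and 65.31 TPM (CAY10566). With oleate it measured 92.1, 100.83 and 100.44 TPM (DMSO) and 93.82, 93.78 and 84.53 TPM (CAY10566). All oleate samples were above all stearate samples, and all were above 5 of the 6 controls, the exception being CAY10566 replicate 3, which lay among the oleate samples.

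The EGFR means were 71.9 ± 12.2 TPM in the controls, 60.5 ± 5.71 TPM with stearate and 94.3 ± 6.02 TPM with oleate (SD, n = 6). EGFR was upregulated 1.32-fold by oleate (log2 fold change 0.40 ± 0.084; adjusted p = 0.00372). Stearate against control did not pass the FDR (−0.24 ± 0.084; adjusted p = 0.0546), and stearate against oleate gave the largest difference of the set, 0.645 times as high (−0.63 ± 0.084; adjusted p = 2.54e-05). Without CAY10566 replicate 3, oleate against control was 0.48 (adjusted p = 4.48e-05) and stearate against control was −0.15 (adjusted p = 0.072). EGFR has a long transcript (9905 bases for the longest annotated), and this sample differed from the other controls in its balance of long and short transcripts. The part of that balance in its EGFR value was not tested. With size factors the oleate difference was 0.30 (adjusted p = 0.00749), under the fold threshold. With the trend in transcript length and GC content removed from every sample, the oleate difference was 0.27 (adjusted p = 0.00412), also under it, and the stearate difference was −0.28 (adjusted p = 0.00218).

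The coreceptors ERBB2 and ERBB3 passed the FDR in none of the 3 fatty acid comparisons, and their groups overlapped in each. ERBB2 (ENSG00000141736, chr17:39687914-39730426, plus strand) ranged from 11.2 to 14.1 TPM in the controls (median 13.0), from 12.4 to 16.9 TPM with stearate (median 14.4) and from 12.3 to 15.5 TPM with oleate (median 13.1). ERBB3 (ENSG00000065361, chr12:56076799-56103505, plus strand) ranged from 7.02 to 9.83 TPM in the controls (median 7.99), from 7.52 to 9.22 TPM with stearate (median 8.71) and from 7.43 to 11.2 TPM with oleate (median 9.29). The log2 fold changes of both lay between −0.10 and 0.15 in the 3 comparisons, with no adjusted p under 0.165. ERBB3 is overlapped on its own strand by another protein-coding annotation, ENSG00000257411, that reached 26.7 TPM, so its reads could have been split and its level is uncertain. MIEN1, on the opposite strand of the ERBB2 locus, reached 52.2 TPM, which makes ERBB2 uncertain if strand was not used in quantification.

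ADAM17, the sheddase, was the only gene of the set that rose with stearate. ADAM17 (ENSG00000151694, chr2:9488486-9556732, minus strand) measured 55.53, 53.73 and 56.96 TPM with DMSO and 56.69, 53.33 and 62.47 TPM with CAY10566. Stearate samples held 68.33, 68.34 and 62.92 TPM (DMSO) and 66.72, 65.57 and 64.31 TPM (CAY10566), all above every control. Oleate samples held 60.68, 62.06 and 65.19 TPM (DMSO) and 61.25, 64.64 and 57.05 TPM (CAY10566), of which 2 were above every control. ADAM17 was 1.17-fold higher with stearate (log2 fold change 0.22 ± 0.040; adjusted p = 0.00078) and also passed the FDR with oleate (0.13 ± 0.040; adjusted p = 0.0243). The oleate call was lost when the samples were rescaled by size factors (0.028; adjusted p = 0.539), and with the length and GC trend removed (0.036; adjusted p = 0.417). It was also lost in the CAY10566 samples alone (0.085; adjusted p = 0.521) and without DMSO replicate 2 (0.12; adjusted p = 0.0612), CAY10566 replicate 2 (0.11; adjusted p = 0.0591), oleate+DMSO replicate 3 (0.11; adjusted p = 0.0608) or oleate+CAY10566 replicate 2 (0.12; adjusted p = 0.0536). Stearate against oleate did not pass (0.095; adjusted p = 0.102), but passed with size factors (0.14; adjusted p = 0.00231), with the trend removed (0.11; adjusted p = 0.0185) and without CAY10566 replicate 3 (0.095; adjusted p = 0.0492). IAH1, on the opposite strand of the ADAM17 locus, reached 62.3 TPM, and whether the quantification used strand is not given in the sources used here, so the level and the differences of ADAM17 are uncertain to that extent.

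ERRFI1, the inhibitor, fell with stearate and rose with oleate at the FDR. ERRFI1 (ENSG00000116285, chr1:8004404-8026309, minus strand) measured 1106.53, 1066.16 and 1105.5 TPM with DMSO and 1138.21, 1097.42 and 1217.0 TPM with CAY10566. Stearate samples held 971.19, 958.56 and 880.29 TPM (DMSO) and 921.59, 942.43 and 945.93 TPM (CAY10566), all below every control. Oleate samples held 1257.23, 1288.62 and 1252.21 TPM (DMSO) and 1295.31, 1288.47 and 1156.19 TPM (CAY10566), and 5 of these 6 were above every control.

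The ERRFI1 means were 1122 ± 52.0, 937 ± 32.2 and 1256 ± 52.2 TPM for control, stearate and oleate (SD, n = 6). ERRFI1 fell to 0.835 times the control level with stearate (log2 fold change −0.26 ± 0.033; adjusted p = 2.49e-05) and was 1.12-fold higher with oleate (0.16 ± 0.033; adjusted p = 0.00321), both short of the fold threshold. The oleate difference did not pass with size factors (0.061; adjusted p = 0.0958) or in CAY10566 samples alone (0.11; adjusted p = 0.325). Stearate against oleate passed both thresholds, at 0.746 times as high (−0.42 ± 0.033; adjusted p = 2.8e-08), with no overlap between the groups.

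**Figure D3:**
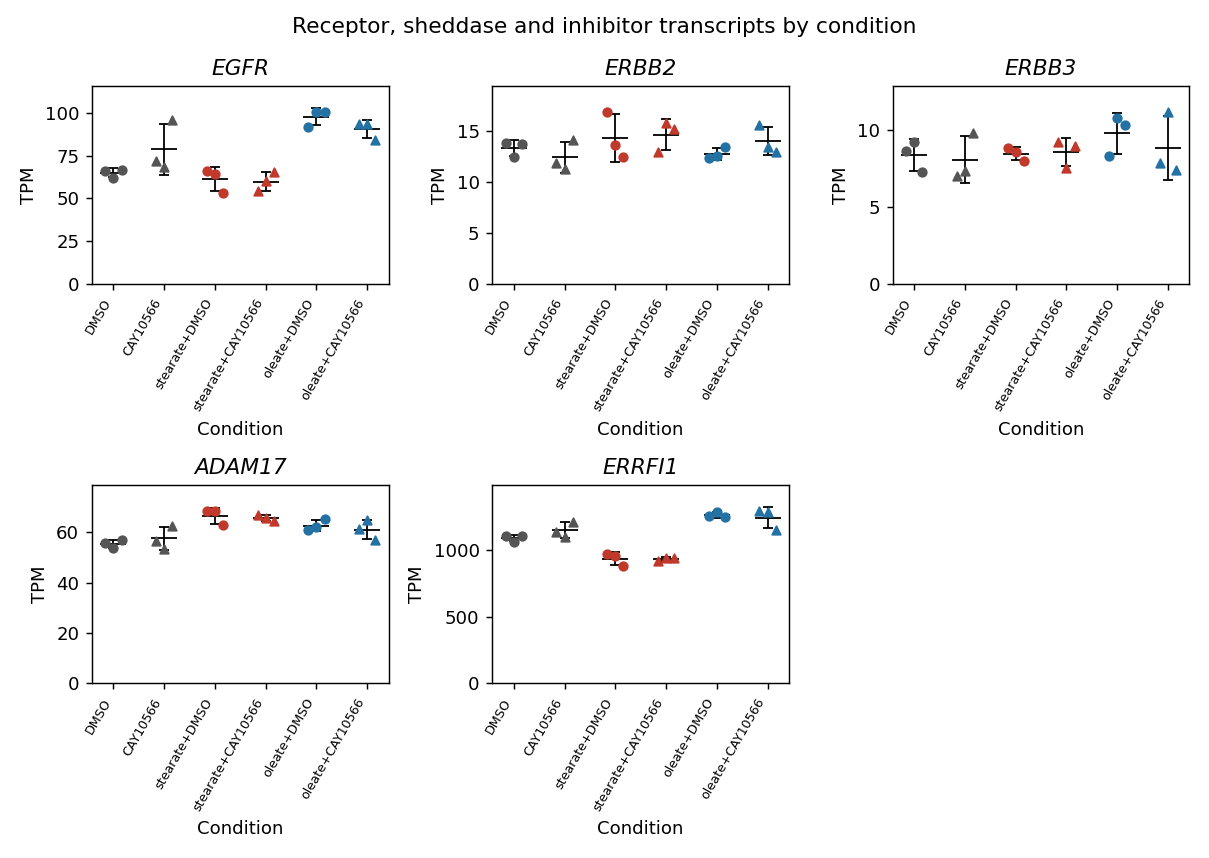
TPM of the 3 receptors, ADAM17 and ERRFI1 in each of the 18 samples by condition, with a vertical axis from 0 in each panel. Circles are DMSO and triangles CAY10566 samples, grey without fatty acid, red with stearate and blue with oleate, with the mean and SD of 3 replicates. The EGFR value of 96.06 TPM in CAY10566 replicate 3 lies among the oleate values, and all stearate values of ERRFI1 lie below the control values.

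Groups of 6 samples did not overlap in stearate against control for AREG, ADAM17 and ERRFI1 (3 of 10, against 7.79% of all genes), in oleate against control for HBEGF and TGFA (2 of 10, both above, against 4.06% of all genes and 3.49% above), and in stearate against oleate for EGFR, EREG, AREG, HBEGF, TGFA and ERRFI1 (6 of 10, all below, against 10.2% of all genes and 7.28% below). In bulk RNA, fewer cells with a transcript and less of it per cell cannot be told apart.

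CAY10566 was compared with DMSO to ask whether blocking SCD1 changed these transcripts. Over all 18 samples with fatty acid as a covariate, 0 of the 10 genes passed the FDR in limma (lowest adjusted p = 0.970), 0 had an unadjusted p under 0.05, and 0% of all genes tested passed, with 748 of them at an unadjusted p under 0.05. The log2 differences lay between −0.063 and 0.14. With stearate present they lay between −0.098 and 0.037, and 0 of 10 passed (against 0.0145% of all genes).

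Without fatty acid 0 of 10 genes passed (0% of all genes). Of all 13789 genes tested, 1399 had an unadjusted p under 0.05, and of the 10 genes 3 did. These were EGFR (78.7 TPM with CAY10566 and 65.1 TPM with DMSO, log2 difference 0.25 ± 0.11; adjusted p = 0.467), AREG (−0.12 ± 0.050; adjusted p = 0.455) and EREG (0.12 ± 0.058; adjusted p = 0.489), and CAY10566 replicate 3 held the highest EGFR and EREG and the lowest AREG of the controls. Without it the 3 differences were 0.10, −0.072 and 0.074, with no adjusted p under 0.929. With oleate, 0 of 10 passed (0% of all genes). BTC averaged 3.54 TPM with oleate+CAY10566 and 2.10 TPM with oleate+DMSO, with no overlap between the 3 replicates of each (0.54 ± 0.17; adjusted p = 0.979).

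The effect of a fatty acid could also differ between DMSO and CAY10566 samples. In the interaction terms 0 of 10 genes passed for stearate (0.00725% of all genes) or oleate (0% of all genes). For EGFR the difference of the oleate effect, CAY10566 minus DMSO, was −0.36 ± 0.15 on the log2 scale (adjusted p = 0.465), and −0.21 ± 0.12 without CAY10566 replicate 3 (adjusted p = 0.823). For BTC it was 0.56 ± 0.23 (adjusted p = 0.465), and 0.49 ± 0.25 without that sample (adjusted p = 0.820). For EREG the difference of the stearate effect was −0.19 ± 0.082 (adjusted p = 0.516), with a stearate effect of −0.0022 with DMSO (adjusted p = 0.986) and −0.19 with CAY10566 (adjusted p = 0.0765), and without CAY10566 replicate 3 it was −0.14 ± 0.080 (adjusted p = 0.802). For EGFR the stearate effect was −0.094 with DMSO (adjusted p = 0.586) and −0.38 with CAY10566 (adjusted p = 0.0596). The difference of these effects was −0.28 ± 0.15 (adjusted p = 0.553), and −0.13 ± 0.12 without CAY10566 replicate 3 (adjusted p = 0.873). The EGFR and BTC oleate terms and the EREG stearate term were those with an unadjusted p under 0.05. Of all 13789 genes, 1415 had one for the oleate term and 1290 for the stearate term.

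Within the DMSO samples alone, 3 against 3, EGFR (log2 fold change 0.58; adjusted p = 0.00345) and TGFA (0.48; adjusted p = 0.00218) were again past both thresholds for oleate against control, where 14.1% of all genes passed. Within the CAY10566 samples alone 0 of 10 genes passed, where 0.0725% of all genes did, and the log2 fold changes were 0.22 for EGFR (adjusted p = 0.397), 0.32 for TGFA (adjusted p = 0.115) and 0.18 for HBEGF (adjusted p = 0.0503). The 3 controls of this arm include CAY10566 replicate 3. Without it the difference of the oleate effect moved from −0.36 to −0.21 for EGFR and from −0.16 to −0.082 for TGFA. For HBEGF it was −0.0062 and −0.0082. Single-arm values without that sample were not computed, here or for the pathway genes below. Stearate against oleate held in both arms: EGFR was −0.67 (adjusted p = 0.000956) with DMSO and −0.59 (adjusted p = 0.00275) with CAY10566, and ERRFI1 was −0.44 (adjusted p = 1.74e-05) and −0.41 (adjusted p = 3.35e-05). For stearate against control, AREG was −0.31 (adjusted p = 0.00126) with DMSO and −0.18 (adjusted p = 0.04998) with CAY10566, and ADAM17 was 0.26 (adjusted p = 0.0108) and 0.19 (adjusted p = 0.0812).

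Scaling moved the oleate comparison more than the others. Size factors shifted the middle of the log2 fold changes of all genes, their median, from 0.0872 to −0.00355 for oleate and from 0.0599 to 0.00537 for stearate. After this rescaling, EGFR (0.30; adjusted p = 0.00749), TGFA (0.30; adjusted p = 0.000309) and HBEGF (0.083; adjusted p = 0.0471) still passed the FDR for oleate against control, but EGFR and TGFA fell under the fold threshold, which left 0 of 10 genes past both. EREG, ADAM17 and ERRFI1 no longer passed the FDR. For stearate against control, AREG, ADAM17 and ERRFI1 passed under TPM, size factors and removal of the length and GC trend, while EGFR (−0.30; adjusted p = 0.00475), EREG and HBEGF (−0.11; adjusted p = 0.0114) also fell with size factors.

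**Figure D4:**
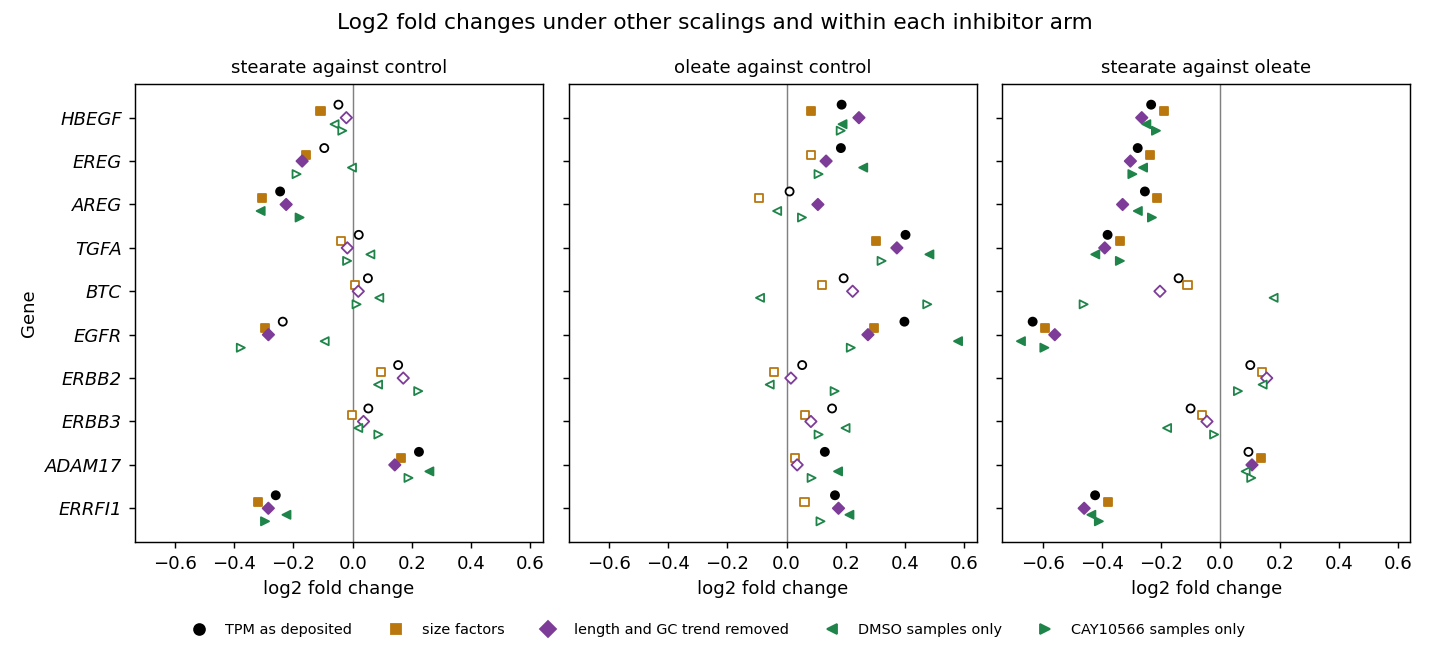
Log2 fold changes of the 10 genes in the 3 fatty acid comparisons, with TPM as deposited (black), rescaled by size factors (orange) or with the length and GC trend removed (purple), and within the DMSO or CAY10566 samples alone (green triangles pointing left or right). Filled symbols have an FDR under 0.05. In stearate against oleate EGFR, TGFA, ERRFI1, HBEGF, EREG and AREG are filled under all 5 settings, and in oleate against control 0 genes are filled within the CAY10566 samples.

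The genes around these were read from 5 lists, whose counts stand against all-gene shares of 13.5% rising and 5.97% falling with stearate, 23% rising and 2.7% falling with oleate, and 6.85% higher and 14.3% lower in stearate against oleate at the FDR. With size factors the all-gene shares were 7.75% rising and 10.3% falling with stearate, 8.89% and 9.42% with oleate, and 10.5% higher and 11.4% lower in stearate against oleate. With the length and GC trend removed they were 13% and 5.16%, 22.1% and 1.89%, and 6.49% and 15.2%. Of 7 other ligands and receptors, EGF (mean 1.91 TPM over all samples) and EPGN (1.56 TPM) were tested and passed in 0 of the 3 comparisons with TPM as deposited, and NRG1, NRG2, NRG3, NRG4 and ERBB4 averaged under 1 TPM. EPGN encodes epigen and lay at 1.04 ± 0.578 TPM with stearate and 1.77 ± 0.684 TPM in the controls (log2 fold change −0.45; adjusted p = 0.172). EGF was at 2.36 ± 0.628 and 1.74 ± 0.155 TPM (0.28; adjusted p = 0.149). In stearate against oleate EGF passed both thresholds upwards with size factors (0.39; adjusted p = 0.0358) and with the trend removed (0.39; adjusted p = 0.0405), against 0.36 (adjusted p = 0.0577) as deposited.

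Of 9 tested genes of ligand shedding and trafficking, 1 fell with stearate and 3 rose with oleate at the FDR, and 5 were lower with stearate than with oleate (2 falling with stearate, 2 rising and 1 falling with oleate and 3 lower with size factors, and 1 rising and 1 falling with stearate, 4 rising with oleate and 3 lower with the trend removed). In DMSO samples alone 3 of them passed both thresholds for oleate, where 14.1% of all genes did. In all samples 1 did, where 6.9% of all genes did. ADAM10, the sheddase of EGF and betacellulin, averaged 77.5 ± 13.9 TPM in the controls, 74.9 ± 4.84 TPM with stearate and 96.8 ± 6.70 TPM with oleate. It was past both thresholds for oleate against control (log2 fold change 0.33 ± 0.082; adjusted p = 0.00803) and for stearate against oleate (−0.37 ± 0.082; adjusted p = 0.0037), the latter with no overlap. The oleate change of ADAM10 was under the fold threshold with size factors (0.23; adjusted p = 0.0313) and with the trend removed (0.19; adjusted p = 0.0338), and did not pass the FDR in CAY10566 samples alone (0.23; adjusted p = 0.348). Stearate against oleate was under the fold threshold with the trend removed (−0.31; adjusted p = 0.00129) and did not pass in DMSO samples alone (−0.33; adjusted p = 0.0548). The gene that fell with stearate was CD9, named after its values were seen, a tetraspanin that binds the HBEGF precursor. CD9 averaged 91.2 ± 5.18 TPM in the controls, 76.3 ± 1.52 TPM with stearate and 91.8 ± 2.40 TPM with oleate (stearate against control −0.25 ± 0.033; adjusted p = 3.9e-05, no overlap).

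Of the 18 genes of receptor down-regulation, all tested, 2 rose and 1 fell with stearate and 10 rose and 1 fell with oleate at the FDR, near the all-gene shares for stearate, but with size factors the oleate counts were 2 rising and 3 falling and with the trend removed 5 and 1. Of the 18, 4 were lower with stearate than with oleate (1 higher and 3 lower with size factors, 4 lower with the trend removed). Past both thresholds for oleate were 1 of the 18 in all samples (against 6.9% of all genes) and 4 in DMSO samples alone (against 14.1%). CBLC, a ubiquitin ligase of the CBL family, ranged from 54.6 to 60.4 TPM in the controls (median 57.7), from 38.4 to 42.0 TPM with stearate (median 40.5) and from 49.9 to 57.6 TPM with oleate (median 53.7). The stearate samples were below all others, and CBLC fell by 0.50 ± 0.036 on the log2 scale (adjusted p = 2.31e-08). STAM2, an endosomal sorting protein, was higher with stearate (12.5 ± 0.679 against 9.23 ± 1.85 TPM, log2 fold change 0.42; adjusted p = 0.00355), with overlapping ranges. CBL, the main ubiquitin ligase of EGFR, was higher with oleate (8.92 ± 0.711 against 6.60 ± 1.38 TPM, 0.40; adjusted p = 0.00759), but under the fold threshold with size factors (0.31; adjusted p = 0.0149) or the trend removed (0.26; adjusted p = 0.0144). In CAY10566 samples alone neither STAM2 with stearate (0.25; adjusted p = 0.289) nor CBL with oleate (0.23; adjusted p = 0.442) passed the FDR.

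Of 20 adaptors and effectors, 6 rose with stearate and 13 rose and 1 fell with oleate at the FDR. With size factors the counts were 3 for stearate and 5 and 1 for oleate, and with the trend removed 3 for stearate and 12 and 0 for oleate. Of the 20, 3 were lower with stearate than with oleate (1 higher and 3 lower with size factors, 4 lower with the trend removed). Past both thresholds for oleate were 1 of the 20 in all samples (against 6.9% of all genes), 7 in DMSO samples alone (against 14.1%) and 0 in CAY10566 samples alone (against 0.0725%). With all samples, past both thresholds were PIK3CA, the catalytic subunit of PI3K, with stearate (17.2 ± 1.98 against 13.6 ± 1.66 TPM, log2 fold change 0.33; adjusted p = 0.0264) and PIK3R1, its regulatory subunit, with oleate (7.66 ± 1.10 against 5.60 ± 0.800 TPM, 0.39; adjusted p = 0.0096). PIK3CA was under the fold threshold with size factors (0.27; adjusted p = 0.0426) and missed the FDR with the trend removed (0.23; adjusted p = 0.0596) and in either arm alone (lowest adjusted p = 0.0637), while with oleate it passed both thresholds in DMSO samples alone (0.47; adjusted p = 0.0144), against 0.25 in all samples (adjusted p = 0.0681). PIK3R1 was under the fold threshold with size factors (0.30; adjusted p = 0.0268) and with the trend removed (0.29; adjusted p = 0.0318), and missed the FDR in either arm alone (lowest adjusted p = 0.129).

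Of 13 ERK-responsive transcripts, 5 rose and 1 fell with stearate and 4 rose and 1 fell with oleate. With size factors 3 rose and 2 fell with stearate and 1 rose and 1 fell with oleate, and with the trend removed 6 and 0 and 6 and 0. Of the 13, 3 were higher and 2 lower with stearate than with oleate (4 and 2 with size factors, 3 and 4 with the trend removed). SPRED1, an inhibitor of RAS-ERK signalling, rose past both thresholds with stearate (12.1 ± 1.73 against 8.72 ± 2.12 TPM, 0.44; adjusted p = 0.0116), though not in CAY10566 samples alone (0.25; adjusted p = 0.43). The immediate-early gene EGR1 rose with stearate (42.3 ± 5.15 against 19.3 ± 1.03 TPM, 1.08; adjusted p = 8.71e-09) and, short of the fold threshold, with oleate (0.31; adjusted p = 0.00556). With oleate 0 of these 13 passed both thresholds, against 6.9% of all genes. With the trend removed 1 did, EGR1 (0.33; adjusted p = 0.00431), as did 562 of all 13789 genes. A pseudocount of 0.1 gave 1, SPRED1 (0.35; adjusted p = 0.0473). In DMSO samples alone 2 did, EGR1 among them (0.35; adjusted p = 0.00374), where 14.1% of all genes did. The oleate change of EGR1 was 0.21 with size factors (adjusted p = 0.0283). It missed the FDR in CAY10566 samples alone (0.27; adjusted p = 0.129). Without CAY10566 replicate 3 each pathway gene named as past both thresholds was so again, SPRED1 also passed both with oleate (0.42; adjusted p = 0.0032) and CBL also with stearate (0.38; adjusted p = 0.0014).

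The genes nearest to the members in their pattern over the 18 samples were found by the root-mean-square difference of log2(TPM + 1), each gene centred on its own mean. Nearest to EGFR, whose SD over the samples was 0.299, were MYOF (0.0588), MACF1 (0.0623) and PTPRH (0.0663). TGFA (SD 0.204) lay nearest to ZNF217 (0.0585), ANO6 (0.0641) and BMAL2 (0.0641), and ERRFI1 (SD 0.182) to CD59 (0.0446), F2R (0.0524) and IGF2BP2 (0.0555). MYOF, MACF1, ZNF217, ANO6, BMAL2 and CD59 have transcripts of 4584 bases or more, the long class above. The longest transcripts of PTPRH (3923 bases), F2R (3727) and IGF2BP2 (4283) are shorter. The part of transcript length in these patterns was not tested.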

How the data were processed

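The deposited table holds TPM per gene for 18 samples. The authors trimmed reads with Trim Galore, aligned them to GRCh38 with STAR 2.7.1a and quantified genes with RSEM. TPM keeps no depth, so precision comes only from the spread between samples. The study's methods describe treatments in triplicate and, for its in vitro work in general, independent experiments, without saying whether these RNA samples came from separate cultures, so p-values measure the spread between samples, which may be technical. Groups came from the sample labels. A stray header line without a gene was left out, and no values in the 18 columns lacked a sample. Symbols were found for 93.1% of identifiers. Coordinates and lengths are from GENCODE release 44, and promoters from RefSeq.

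Tests used limma 3.58.1 in R 4.3.3 (lmFit, eBayes with trend) on log2(TPM + 1), so fold changes of low genes are understated, for 13789 genes with a mean of at least 1 TPM. Benjamini-Hochberg adjustment covered all of these. Genes were taken as changed at an FDR under 0.05, and as past both thresholds if the change was also more than 1.25-fold, as in the study's methods. Fatty acid comparisons used 3 groups of 6, inhibitor comparisons a fatty acid covariate or a fit of 6 conditions, whose contrasts gave interactions and single-arm values. The fit was tested on simulated data. Figures used matplotlib 3.10.9 in Python 3.11.15.

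Alternatives were a pseudocount of 0.1, no filter or a minimum of 5 TPM, no trend, size factors, a replicate block, CAY10566 as a covariate, each arm alone, leaving out each sample and, chosen after seeing the data, removal of the length and GC trend per sample by splines. The 10 genes and the pathway lists were chosen with earlier results of these data known. Named pathway genes were, per list, up to 3 with the largest change past both thresholds with stearate or oleate, and pattern genes the 3 nearest to each member past both thresholds in any fatty acid comparison.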

Additional observations from a re-analysis of the deposited data

Results flagged for a closer look

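In 4 of 30 groups of 6 samples (10 genes in 3 fatty acid groups) the value farthest out stood apart by Dixon's test of its gap to the nearest value over the range, at the 95% level, and chance gives about 1 in 20 groups, or 1.5 of 30. EGFR was 96.06 TPM in CAY10566 replicate 3, against 71.96 TPM in the next control (0.712 of the range), and this is the control whose balance of long and short transcripts differed from the others. TGFA was 49.34 TPM and ERRFI1 1156.19 TPM in oleate+CAY10566 replicate 3, below the next oleate samples at 55.27 and 1252.21 TPM (0.856 and 0.690 of the range), and this sample had the lowest long-minus-short value of the oleate samples, −0.00728. ERBB2 was 15.53 TPM in oleate+CAY10566 replicate 1, above the next at 13.43 TPM (0.654 of the range). The part of the length balance in these values was not tested.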

How the results depend on the processing

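Of 10 genes, the number past both thresholds stayed at 0 for stearate against control and 3 or 4 for stearate against oleate under all alternatives. For oleate against control it was 2, but 0 with size factors, 0 in CAY10566 samples only and 1 (TGFA) with the length and GC trend removed, and 2 without each replicate in turn. Over all genes the oleate count was 951 (891 upwards), 456 (306 upwards) with size factors, 562 (516 upwards) with the trend removed and 10 in CAY10566 samples only, the stearate count 738 (477 upwards) and 640 (267 upwards), and the stearate against oleate count 879 (220 upwards) and 815 (315 upwards). These differences, none past the FDR as deposited, changed sign. For stearate against control, size factors gave −0.00097 for ERBB3 and −0.039 for TGFA, and TGFA was −0.019 in CAY10566 samples only and −0.018 with the trend removed. For oleate against control, size factors gave −0.043 for ERBB2 and −0.092 for AREG, and DMSO samples only gave −0.057 for ERBB2, −0.032 for AREG and −0.090 for BTC. In stearate against oleate BTC was 0.18 in DMSO samples only. Without each replicate in turn, stearate against control ranged from −0.00034 to 0.063 for TGFA and from −0.0085 to 0.11 for BTC, and oleate against control from −0.022 to 0.031 for AREG. AREG passed the FDR for oleate with the trend removed (0.11, adjusted p = 0.0135). EGFR passed for stearate against control without DMSO replicate 2 (−0.27, adjusted p = 0.0371) and with a minimum of 5 TPM (−0.24, adjusted p = 0.0444). The cause of these changes was not tested. The replicate block gave 0, 2 and 3 genes for the 3 comparisons and changed no call of a member. Deviations of same-numbered samples had correlations from −0.18 to 0.103, over 0.1 in 2 of 45 pairs. Of 18 samples, 9 correlated best with their own number out of 3. This count was not tested against chance, so whether the numbers pair the samples was not settled. The inhibitor and interaction counts were 0 under every alternative run. Read depth is unknown.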
